A study of Mus musculus with 8 samples.

Results

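The mitochondrially encoded RNAs, which are the transcripts of the circular genome inside mitochondria, were measured in tibialis anterior (TA) muscles of WT mice and of *mdx5cv* mice, a model of Duchenne muscular dystrophy with a mutation in *Dmd*. The members were all genes whose symbol starts with mt-, 37 of the 55401 genes in the deposited table, and comprised 13 mRNAs, 22 tRNAs and 2 rRNAs. Both groups held 4 male mice on the C57/Bl6 strain, all 6 months old, and differed by genotype (WT or *mdx5cv*), and the labels give no treatment. Libraries were stranded and made from total RNA of the whole muscle.

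Mitochondrial DNA is transcribed from both strands into long transcripts that cover many genes, and tRNAs lie between most of the mRNAs and rRNAs and mark the places where these transcripts are cut. The mRNAs code for core subunits of complexes I, III, IV and V of oxidative phosphorylation, the rRNAs for the RNA of the mitochondrial ribosome, and the tRNAs serve translation on that ribosome. The proteins that transcribe, cut, modify and translate these RNAs, and the other subunits of the complexes, are nuclear-encoded. In skeletal muscle, oxidative phosphorylation supplies ATP for sustained contraction.

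In GENCODE M21 (GRCm38), 12 of the mRNAs, 14 of the tRNAs and both rRNAs are transcribed from the heavy strand, and *mt-Nd6* and the other 8 tRNAs from the light strand. The 7 tRNAs with enough reads to be compared had the largest median change of the 3 classes, and their sequences (DNA letters, 5′ to 3′, from the GENCODE M21 transcripts) are shown with the anticodon in capitals.
mt-Tl1: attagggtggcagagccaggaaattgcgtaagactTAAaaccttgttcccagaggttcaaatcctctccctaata
mt-Ti: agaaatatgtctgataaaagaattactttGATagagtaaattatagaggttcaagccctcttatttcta
mt-Tq: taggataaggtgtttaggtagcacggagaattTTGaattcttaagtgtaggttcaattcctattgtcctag
mt-Tm: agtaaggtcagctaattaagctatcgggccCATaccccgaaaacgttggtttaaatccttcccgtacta
mt-Tw: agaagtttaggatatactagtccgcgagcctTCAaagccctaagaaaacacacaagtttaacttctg
mt-Tt: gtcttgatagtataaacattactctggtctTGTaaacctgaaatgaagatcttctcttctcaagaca
mt-Tp: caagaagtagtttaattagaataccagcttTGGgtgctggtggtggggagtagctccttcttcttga
The anticodons are those of the tRNAs for leucine (*mt-Tl1*), isoleucine, glutamine, methionine, tryptophan, threonine and proline in this order. In the nuclear code, the codon read by the anticodon of *mt-Tw* is a stop, and in mitochondria it codes for tryptophan.

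The unit is the normalized count, meaning the reads of a gene divided by a size factor of the library. Each WT library held 13862559 to 14921057 reads, and each *mdx5cv* library 13175524 to 14502624. The 13677 genes whose normalized count averaged 10 or more over the 8 libraries were tested with limma on log2(normalized count + 1), and a gene was called lower or higher at an adjusted p under 0.05. Fold changes are *mdx5cv* against WT on this scale, on which the changes of scarce RNAs are understated. The transcript of the mutated gene, *Dmd*, had normalized counts of 6914, 8155, 6579 and 6169 in WT and 4399.6, 4056, 3941 and 3461 in *mdx5cv*. All 4 *mdx5cv* values were below the WT values, with a log2 fold change of -0.81 (SE 0.12, adjusted p = 0.000177).

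Mitochondrial mRNAs and tRNAs were lower in *mdx5cv* muscles. The rRNAs were not called in limma, whereas DESeq2 called both lower. Of the 37 members, 21 were tested, 18 were lower and 0 were higher in limma. The lower members were 11 of the 12 mRNAs tested and all 7 tRNAs tested, where 20.1% of all genes tested were lower and 20.9% were higher. Of these members, *mt-Atp8* was tested only through its WT values. No member was higher at an unadjusted p under 0.05 in limma, and edgeR and DESeq2 also called 0 higher. The log2 fold change was -1 or less in 8 mRNAs and 7 tRNAs, against 3.27% of all genes tested. The median log2 fold change was -1.28 for the mRNAs, -1.65 for the tRNAs, -0.61 for the rRNAs and 0.00 for all genes tested. In 7 mRNAs and 7 tRNAs every *mdx5cv* value was below every WT value, which held for 19.8% of all genes tested. In a bulk muscle, a lower level can mean less RNA per fiber or fewer of the cells that hold it, and these cannot be told apart.

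Shares of the reads of a library do not depend on the size factors. The percentage of all reads on the mitochondrial mRNAs was 5.5, 4.44, 4.58 and 4.09 in WT and 2.27, 3.31, 2.6 and 2.63 in *mdx5cv*. Even the lowest WT muscle lay above the highest *mdx5cv* muscle, and the means were 4.65% ± 0.603 and 2.71% ± 0.436 (SD, n = 4). For the tRNAs, the percentages were 0.00699, 0.00773, 0.00626 and 0.00616 in WT and 0.002, 0.00334, 0.00252 and 0.00252 in *mdx5cv*, again without overlap. For all mitochondrially encoded RNAs together, the share averaged 35.2% ± 3.84 among WT and 28.4% ± 2.82 among *mdx5cv* muscles (SD, n = 4), with ranges of 30% to 38.7% and 25.3% to 32.1% that overlapped. Most of these reads were on the rRNAs. The number of mRNA reads per 100 rRNA reads was 16.6, 13.4, 15.2 and 15.8 in WT and 9.88, 11.5, 10.1 and 10.5 in *mdx5cv*. This ratio within the mitochondrial reads was lower in every *mdx5cv* muscle than in any WT muscle, with means of 15.2 ± 1.34 and 10.5 ± 0.712 (SD, n = 4). No test was made on sums over the members.

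**Figure D1:**
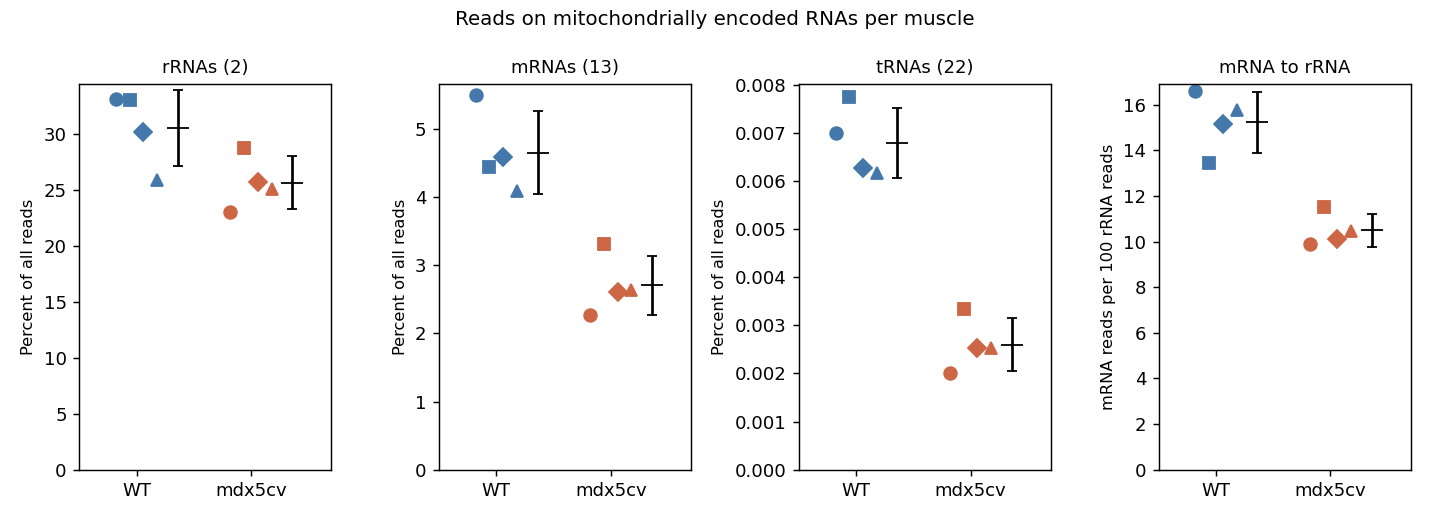
Percentage of all reads on mitochondrial rRNAs, mRNAs and tRNAs, and mRNA reads per 100 rRNA reads, in each of 4 WT (blue) and 4 *mdx5cv* (orange) muscles; marker shapes stand for replicate numbers and the bar beside each group for mean and SD. The groups overlap for the rRNAs and are apart in the other panels, where mRNAs fall from a mean of 4.65% to 2.71%.

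Complex I, the entry point of electrons from NADH, has 7 mitochondrially encoded subunits. *mt-Nd1* (chrM:2751-3707), the first mRNA gene after the rRNAs, had normalized counts of 159327, 102625, 113673 and 94792 in WT replicates 1 to 4 and 37423, 66076, 46547 and 39285 in *mdx5cv* replicates 1 to 4. All *mdx5cv* muscles were below all WT muscles, and the log2 fold change was -1.32 (SE 0.23, adjusted p = 0.000655). *mt-Nd2* (chrM:3914-4951) had 90015, 30876, 56039.7 and 50876 in WT and 18478, 39998, 22943 and 25442 in *mdx5cv*, with a log2 fold change of -1.05 (SE 0.30, adjusted p = 0.0129). WT replicate 2 was the lowest WT muscle and lay below *mdx5cv* replicate 2. *mt-Nd3* (chrM:9459-9806) was the mRNA with the largest fall, from 296, 261, 213 and 166 in WT to 41.7, 74.5, 46.8 and 26.4 in *mdx5cv*. Its groups lay far apart, with a log2 fold change of -2.34 (SE 0.27, adjusted p = 2.38e-05). *mt-Nd4l* (chrM:9877-10173) had at most 16 reads in a muscle and a mean normalized count of 8.58, and was left out of the main test. Its values ranged from 6.58 to 18.3 in WT and from 2.83 to 7.41 in *mdx5cv*.

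*mt-Nd4* (chrM:10167-11544) had normalized counts of 56645, 25292, 40112 and 39928 in WT and 16656, 33358, 20173 and 23632 in *mdx5cv*. WT replicate 2 lay within the *mdx5cv* range, and the log2 fold change was -0.78 (SE 0.25, adjusted p = 0.0242). *mt-Nd5* (chrM:11742-13565) had 70827, 26275, 47171 and 47854 in WT and 19542, 37432, 24285 and 29554 in *mdx5cv*, with the same muscle inside the *mdx5cv* range, and a log2 fold change of -0.75 (SE 0.27, adjusted p = 0.0429). Leaving out 1 muscle ended both calls in several fits. That of *mt-Nd4* was lost without WT replicate 1 (adjusted p = 0.0837), WT replicate 3 (0.0580), *mdx5cv* replicate 1 (0.0806) or *mdx5cv* replicate 3 (0.0602), and that of *mt-Nd5* when any 1 of WT replicates 1, 3 and 4 or *mdx5cv* replicates 1, 3 and 4 was left out (adjusted p from 0.0502 to 0.141). Both were also lost when libraries were scaled to equal totals of all reads (adjusted p = 0.136 and 0.211) or of reads outside mitochondrial genes (0.0701 and 0.116). *mt-Nd6* (chrM:13552-14070), the only mRNA of the light strand, had 527, 660.3, 793 and 745 in WT and 354, 632, 739 and 203 in *mdx5cv*. *mdx5cv* replicate 4 was below all other muscles, while replicates 2 and 3 lay within the WT range, and the log2 fold change of -0.65 (SE 0.31, adjusted p = 0.112) was not called. Without *mdx5cv* replicate 3 it was -0.91 and called (adjusted p = 0.0241).

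Complex III passes electrons from ubiquinol to cytochrome c and takes 1 subunit, cytochrome b, from mitochondrial DNA. *mt-Cytb* (chrM:14145-15288) had normalized counts of 113468, 47609.6, 81603 and 76828 in WT and 33149, 60888, 43566 and 39698 in *mdx5cv*. WT replicate 2 was again the lowest WT muscle and lay below *mdx5cv* replicate 2. The log2 fold change was -0.82 (SE 0.26, adjusted p = 0.0237), and the call was lost without WT replicate 1 (adjusted p = 0.0819), WT replicate 3 (0.0621) or *mdx5cv* replicate 1 (0.0770), under equal totals of all reads (0.10) or of reads outside mitochondrial genes (0.0507), with no filter on low values (0.0586) and under scaling to equal mitochondrial mRNA reads.

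The 3 core subunits of complex IV, which reduces oxygen, are encoded by *mt-Co1*, *mt-Co2* and *mt-Co3*. *mt-Co1* (chrM:5328-6872) was the most abundant mRNA per length, with 257821 normalized counts per kb in WT, and its share of the mitochondrial mRNA reads averaged 53.8% ± 9.57 over WT and 49.9% ± 4.65 over *mdx5cv* muscles (SD, n = 4). Its normalized counts were 435887, 491727, 376964 and 288759 in WT and 151494, 214308, 178787 and 128207 in *mdx5cv*. The groups did not overlap, with a log2 fold change of -1.24 (SE 0.29, adjusted p = 0.004), and the call was lost only with no filter on low values (adjusted p = 0.0796) and under scaling to equal mitochondrial mRNA reads. WT replicate 2, lowest of WT for *mt-Nd2*, *mt-Nd4*, *mt-Nd5* and *mt-Cytb*, was the highest for *mt-Co1*, so that it had 18.7 *mt-Co1* reads per *mt-Nd5* read where the other 7 muscles had 4.34 to 7.99. *mt-Co2* (chrM:7013-7696) had 157, 99.8, 127 and 109 in WT and 35.2, 44.3, 30.6 and 19.2 in *mdx5cv*, and *mt-Co3* (chrM:8607-9390) had 291, 304, 226 and 161 in WT and 71.3, 84, 54 and 43.2 in *mdx5cv*. In both, the highest *mdx5cv* muscle was well below the lowest WT muscle. The log2 fold changes were -1.94 (SE 0.24, adjusted p = 4.37e-05) for *mt-Co2* and -1.94 (SE 0.23, adjusted p = 3.36e-05) for *mt-Co3*. Their absolute levels and the size of their changes are uncertain, because near-identical sequence lies on chromosome 1. With the reads counted to that sequence added, the log2 fold changes were -1.22 for *mt-Co2* and -1.37 for *mt-Co3*, and the groups of *mt-Co2* overlapped.

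Complex V, the ATP synthase, takes 2 subunits of its membrane part from mitochondrial DNA. The genes *mt-Atp8* (chrM:7766-7969) and *mt-Atp6* (chrM:7927-8607) share 43 bases, which form the end of the first and the start of the second, so reads inside them belong to both. The shared stretch is chrM:7927-7969 on the plus strand of GRCm38, shown with the start codon of *mt-Atp6* in capitals.
mt-Atp8 and mt-Atp6: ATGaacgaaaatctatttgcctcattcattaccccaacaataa
*mt-Atp6* had normalized counts of 169.6, 220.5, 82.9 and 81.6 in WT and 27.8, 48.1, 36.9 and 39.2 in *mdx5cv*. The groups were apart, and the log2 fold change was -1.73 (SE 0.30, adjusted p = 0.000549). The 4 WT muscles fell into a higher pair (replicates 1 and 2) and a lower pair. With the reads of its copy on chromosome 1 added, the groups of *mt-Atp6* overlapped, at a log2 fold change of -1.02. *mt-Atp8* had 33.2, 14.3, 26.5 and 15.9 in WT and 3.71, 9.43, 5.4 and 12 in *mdx5cv*, from at most 29 reads in a muscle. It did not overlap either, and the log2 fold change was -1.47 (SE 0.40, adjusted p = 0.00982).

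**Figure D2:**
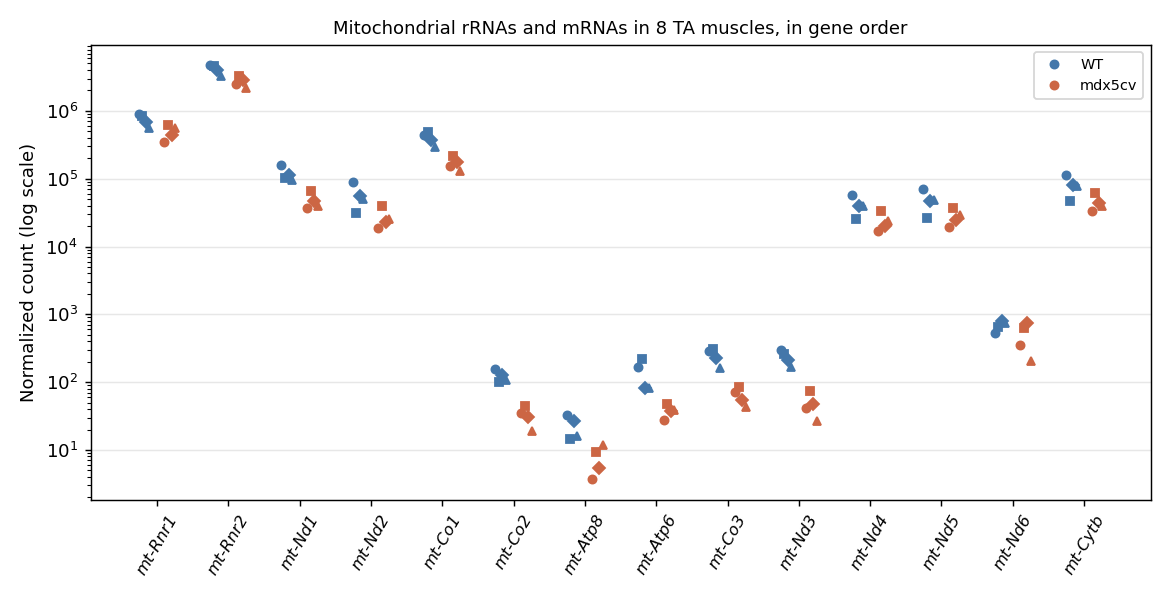
Normalized counts (log axis) of the 2 mitochondrial rRNAs and the 12 mRNAs tested, in gene order, with 1 point per muscle for 4 WT (blue) and 4 *mdx5cv* (orange) muscles and marker shapes for replicate numbers. *mt-Co2*, *mt-Atp8*, *mt-Atp6*, *mt-Co3* and *mt-Nd3* are at 304 or less in every muscle, and the other mRNAs except *mt-Nd6* at 16656 or more.

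The rRNAs of the small and large mitochondrial ribosomal subunits, *mt-Rnr1* (chrM:70-1024) and *mt-Rnr2* (chrM:1094-2675), were the most abundant members. *mt-Rnr1* had normalized counts of 893971, 853094, 676985 and 553635 in WT and 346994, 617183, 444213 and 561632 in *mdx5cv*, and *mt-Rnr2* had 4699169, 4553549.5, 4048137 and 3255116 in WT and 2460279, 3322245, 2885304 and 2168541 in *mdx5cv*. In both, 1 *mdx5cv* muscle (replicate 2) was above the lowest WT muscle (replicate 4); for *mt-Rnr1*, *mdx5cv* replicate 4 was too. Neither was called in limma, with log2 fold changes of -0.60 (SE 0.37, adjusted p = 0.208) and -0.62 (SE 0.64, adjusted p = 0.471), and neither had an unadjusted p under 0.05 there. In edgeR both had an unadjusted p under 0.05 and neither was called (adjusted p = 0.0561 and 0.0547), and DESeq2 called both (adjusted p = 0.010 and 0.000755). The call of *mt-Rnr2* turned on the variance trend of the limma fit, without which its adjusted p was 0.0214. Its SD was 15.8% of the mean in WT and 18.6% in *mdx5cv*. Its limma SE of 0.64 therefore reflects the trend more than the spread between muscles. The number of *mt-Rnr2* reads per *mt-Rnr1* read was 5.26, 5.34, 5.98 and 5.88 in WT and 7.09, 5.38, 6.5 and 3.86 in *mdx5cv*, a ratio with a wider spread among the *mdx5cv* muscles (mean 5.71 ± 1.42) than among WT (5.61 ± 0.369; SD, n = 4). Whether the depletion of ribosomal RNA acted on these rRNAs, and equally in all libraries, was not tested.

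The tRNAs had few reads, and 7 of 22 were tested. A read on a tRNA gene can come from the tRNA itself or from an uncut transcript that spans it, and a count per gene does not tell these apart. The largest fall among all members was that of *mt-Tt* (chrM:15289-15355), the threonine tRNA shown above with the anticodon TGT, with normalized counts of 102, 134, 61.9 and 86.9 in WT and 12, 25.5, 16.2 and 12 in *mdx5cv*. The lowest WT value was above the highest *mdx5cv* value, and the log2 fold change was -2.49 (SE 0.28, adjusted p = 2.23e-05). Relative to *mt-Cytb*, its neighbor on the heavy strand, the number of *mt-Tt* reads per 100 *mt-Cytb* reads was 0.0899, 0.281, 0.0759 and 0.113 in WT and 0.0363, 0.0418, 0.0372 and 0.0302 in *mdx5cv*, again without overlap. *mt-Tw* (chrM:4950-5016) had 363, 379.5, 266 and 250.0 in WT and 68.6, 113, 73.8 and 56.7 in *mdx5cv*, and *mt-Ti* (chrM:3706-3774) had 267, 313, 223 and 207 in WT and 56.5, 88.7, 54.9 and 59.1 in *mdx5cv*. In both, *mdx5cv* replicate 2 was the highest *mdx5cv* muscle and still far below WT. Their log2 fold changes were -2.02 (SE 0.20, adjusted p = 1.01e-05) and -1.95 (SE 0.18, adjusted p = 5.44e-06).

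*mt-Tm* (chrM:3845-3913), the single methionine tRNA of mitochondria, had normalized counts of 164, 150.3, 156 and 113 in WT and 25, 72.6, 51.3 and 45.5 in *mdx5cv*, and *mt-Tl1* (chrM:2676-2750), which follows the large rRNA, had 131, 143, 124 and 89 in WT and 26.9, 83, 41.4 and 42.4 in *mdx5cv*. For *mt-Tl1*, *mdx5cv* replicate 2 came close to the lowest WT muscle. The log2 fold changes were -1.65 (SE 0.26, adjusted p = 0.000293) and -1.41 (SE 0.28, adjusted p = 0.00139). Both light-strand tRNAs tested were lower as well. *mt-Tq* (chrM:3772-3842) had 51.6, 41.7, 42 and 54 in WT and 18.5, 19.8, 19.8 and 9.59 in *mdx5cv* with a log2 fold change of -1.47 (SE 0.26, adjusted p = 0.00058), and *mt-Tp* (chrM:15356-15422) had 58.4, 52.7, 45.3 and 61.4 in WT and 21.3, 30.2, 29.7 and 18.4 in *mdx5cv* with -1.12 (SE 0.21, adjusted p = 0.00116). In neither did the groups overlap. These 7 were lower when each muscle was left out in turn.

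No muscle held more than 17 reads on any of the other 15 tRNAs, whose normalized counts averaged 9.2 or less. The highest of them were *mt-Ta* (9.2), *mt-Tr* (8.31) and *mt-Tc* (5.41). *mt-Td* and *mt-Tk* had no read among the 113303394 reads of the 8 libraries, which allows a share of up to 2.65e-06% (3 counts; counting error only). At this depth a difference between the groups was not detectable for these 15.

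**Figure D3:**
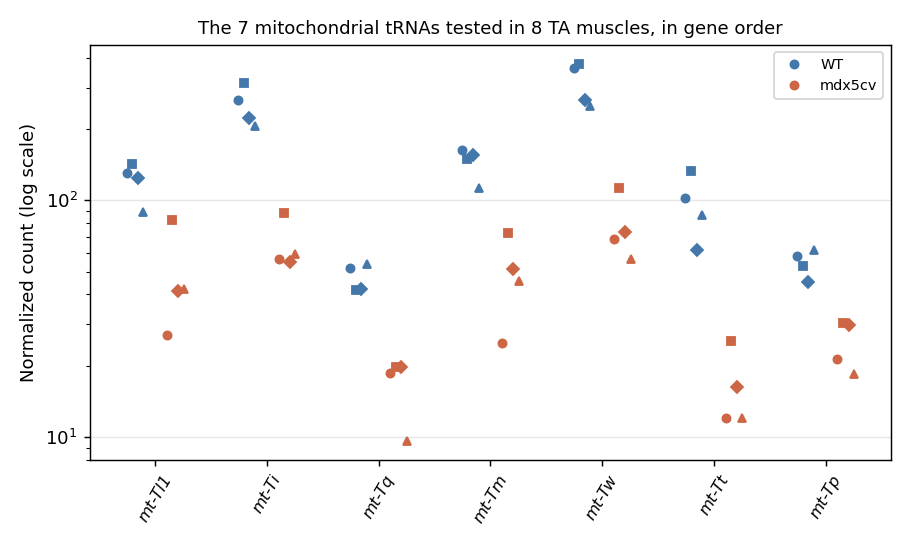
Normalized counts (log axis) of the 7 mitochondrial tRNAs tested, in gene order, with 1 point per muscle for 4 WT (blue) and 4 *mdx5cv* (orange) muscles and marker shapes for replicate numbers. For every tRNA the 4 *mdx5cv* points lie below the 4 WT points, with *mt-Tt* falling from 61.9 or more to 25.5 or less.

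By strand, 11 of 11 heavy-strand mRNAs and 5 of 5 heavy-strand tRNAs tested were lower, against 20.1% of all genes tested. Their median log2 fold changes were -1.32 and -1.95. Of the light-strand members tested, both tRNAs were lower and the mRNA was not called. Of the mitochondrial reads, 0.015% ± 0.00441 lay on light-strand genes for WT and 0.0148% ± 0.00591 for *mdx5cv* muscles (SD, n = 4), with overlap. The number of *mt-Nd6* reads per 100 *mt-Cytb* reads averaged 0.948 ± 0.377 over WT and 1.08 ± 0.485 over *mdx5cv* muscles (SD, n = 4), also with overlap, so a difference between these neighbors on opposite strands was not detectable. *mt-Nd5* and *mt-Nd6* share 14 bases on opposite strands and *mt-Ti* and *mt-Tq* share 3, and whether the counting used the strand of the reads is not given in the sources used here, so the light-strand values are uncertain. Along the heavy strand, the mRNAs that start before the region copied on chromosome 1 had log2 fold changes of -1.32 (*mt-Nd1*), -1.05 (*mt-Nd2*) and -1.24 (*mt-Co1*), and those that end after it -0.78 (*mt-Nd4*), -0.75 (*mt-Nd5*) and -0.82 (*mt-Cytb*). The difference between these genes was not tested.

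Several mitochondrial mRNAs have near-identical copies on chromosome 1, so that many short reads match both places. The stretch chrM:6381-11042 (4662 bases) is matched, gene by gene in the same order, by 7 annotated pseudogenes at chr1:24611535-24616197 on the minus strand (GRCm38). The pseudogenes *Gm28661*, *Gm28437*, *Gm10925*, *Gm10222* and *Gm28439* were 100% identical to *mt-Co2*, *mt-Co3*, *mt-Atp6*, *mt-Nd4l* and the first 876 bases of *mt-Nd4*. *Gm28438* differed from *mt-Nd3* by 1 base (T3C, *mt-Nd3* base first, positions from its 5′ end). *Gm29216* matched the last 492 bases of *mt-Co1* with 6 differences, all at its own start. The first pair of lines below shows *mt-Co1* from position 1054 and the start of *Gm29216*, the second pair the first 45 bases of *mt-Nd3* and *Gm28438*, and the last line the first 60 bases that *mt-Co2* and *Gm28661* have in common, with differing bases in capitals.
mt-Co1: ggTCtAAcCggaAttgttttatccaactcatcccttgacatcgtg
Gm29216: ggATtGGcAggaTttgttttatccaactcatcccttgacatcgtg
mt-Nd3: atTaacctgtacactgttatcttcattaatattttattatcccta
Gm28438: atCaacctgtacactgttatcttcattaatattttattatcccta
mt-Co2 and Gm28661: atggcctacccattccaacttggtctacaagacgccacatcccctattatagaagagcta
Outside the bases in capitals, each pseudogene was identical to its member over the whole aligned length.

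The mRNAs wholly inside this stretch had lower levels per length than the other heavy-strand mRNAs. *mt-Co2*, *mt-Atp8*, *mt-Atp6*, *mt-Co3*, *mt-Nd3* and *mt-Nd4l* had from 42 to 673 normalized counts per kb in WT, whereas the heavy-strand mRNAs outside it or only partly in it had from 26333 (*mt-Nd5*) to 257821 (*mt-Co1*). Of the 50-base windows of *mt-Co2*, *mt-Co3*, *mt-Atp6*, *mt-Nd4l* and *mt-Nd3*, from 98% to 100% also occurred in another annotated transcript. Only 62.2% did for *mt-Nd4* and 51.1% for *mt-Co1*, which reach beyond the stretch, and 0% for *mt-Atp8*, which lies inside the stretch but recurs in no other annotated transcript. Some windows of *mt-Co1*, *mt-Co2* and *mt-Atp6* occurred in annotated transcripts other than the chromosome 1 pseudogenes. So did 8.19% of the windows of *mt-Nd2* and 7.61% of those of *mt-Nd5*. Of the 6 inside, 5 were tested and all 5 were lower, at log2 fold changes of -2.34 to -1.47 (median -1.94), with *mt-Atp8* tested only through its WT values. Of the other 7 mRNAs, 6 were lower, and the 7 had log2 fold changes of -1.32 to -0.65 (median -0.82). Of all genes tested, 20.1% were lower. With the reads of the chromosome 1 copies added, the values of *mt-Nd3*, *mt-Co3*, *mt-Co2* and *mt-Atp6* lay between -1.63 and -1.02, closer to those of the other mRNAs. The difference between these 2 groups of genes was not tested. How reads with more than 1 matching place were counted is not given in the sources used here, and its part in these levels was not tested.

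**Figure D4:**
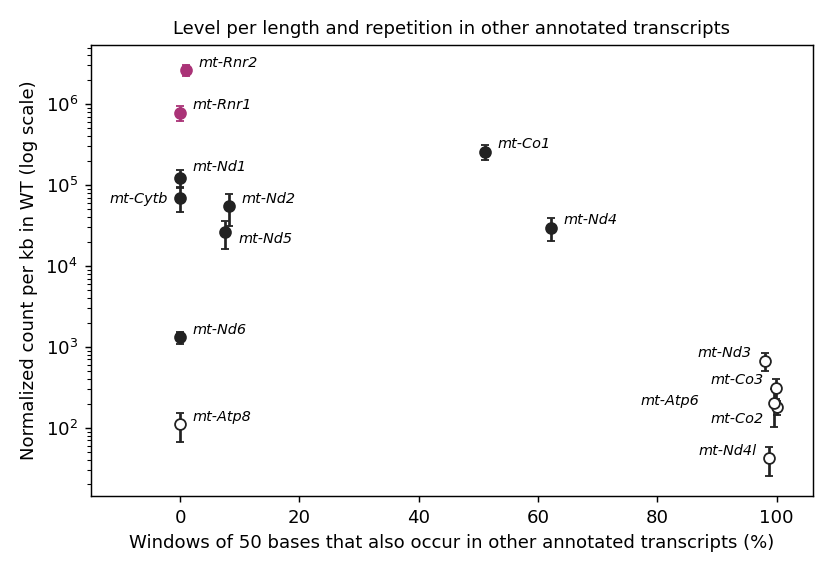
Normalized count per kb in WT (mean and SD of 4 muscles, log axis) of the 13 mitochondrial mRNAs (black) and 2 rRNAs (purple), against the percentage of their 50-base windows that also occur in other annotated transcripts; open circles are mRNAs wholly inside the stretch with a chromosome 1 copy. The open circles lie at 673 or less, and the heavy-strand mRNAs drawn as filled circles at 26333 or more.

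Reads were also counted to the pseudogenes. Where the sequences are identical, a read does not tell whether it came from chromosome 1 or from mitochondrial DNA. *Gm28437*, the copy of *mt-Co3*, had normalized counts of 1779.8, 1854, 2589 and 2928 in WT and 1547, 613, 558 and 1226 in *mdx5cv*, and *Gm28661*, the copy of *mt-Co2*, had 1151, 691, 1597 and 1772 in WT and 881, 419, 329 and 727 in *mdx5cv*. Among the copies *Gm28438*, *Gm28437*, *Gm29216* and *Gm28661* were lower, with log2 fold changes of -1.42, -1.32, -1.31 and -1.17. *Gm10925* (-0.92, adjusted p = 0.0771) and *Gm28439* (-0.49, adjusted p = 0.493) were not called, nor was *Gm10222* (-0.76, adjusted p = 0.327), which was named after its values were seen. There were 7.33, 6.92, 12.6 and 16.2 *Gm28661* reads per *mt-Co2* read in WT and 25, 9.45, 10.7 and 37.9 in *mdx5cv*, so every muscle had more reads counted to the pseudogene than to *mt-Co2*. With the reads of each copy added to its member, an alternative chosen after the data were seen, the log2 fold change was -1.63 (SE 0.22, adjusted p = 8.26e-05) for *mt-Nd3*, -1.37 (SE 0.26, adjusted p = 0.0011) for *mt-Co3*, -1.22 (SE 0.29, adjusted p = 0.00509) for *mt-Co2* and -1.02 (SE 0.34, adjusted p = 0.0271) for *mt-Atp6*. These fold changes remained lower and were closer to those of *mt-Nd1* and *mt-Co1*. The summed levels stayed small, at 3089 or less in every muscle, whereas *mt-Nd1* had 37423 or more. How much of the RNA of these genes the sums capture was not tested. With the copies added the groups of *mt-Nd3* and *mt-Co3* stayed apart, whereas those of *mt-Co2* (791 to 1881 in WT and 359 to 916 in *mdx5cv*) and *mt-Atp6* (802 to 2459 in WT and 414 to 1076 in *mdx5cv*) overlapped. The sum for *mt-Nd4l* had a log2 fold change of -0.91 (SE 0.49, adjusted p = 0.157) and was not called. *mt-Nd4* and *mt-Co1*, with far more reads than their copies, kept log2 fold changes of -0.78 and -1.24.

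**Figure D5:**
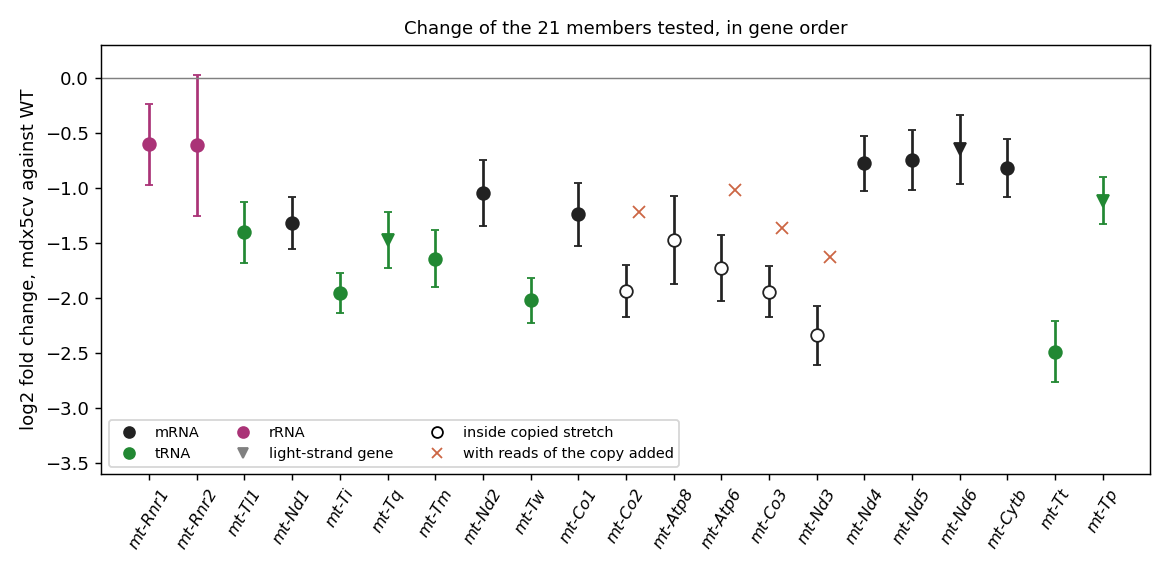
Log2 fold change of *mdx5cv* against WT (points, limma; bars, SE; 4 muscles per group) of the 21 members tested, in gene order, coloured by class, with triangles for light-strand genes and open circles for mRNAs wholly inside the copied stretch; crosses show the value after the reads of the chromosome 1 copy were added. All points lie below 0, from -0.60 for *mt-Rnr1* to -2.49 for *mt-Tt*, and the crosses lie above their open circles.

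To ask which members differed relative to the mitochondrial mRNAs as a whole, libraries were scaled to equal mitochondrial mRNA reads. Under this scaling, the median over all genes tested was a log2 fold change of 1.15, with 86.5% of all genes higher and 0.757% lower, so its values are read within the mitochondrial RNAs only. With most genes called, adjusted p-values under it also lie close to the unadjusted ones. The rRNAs were then higher, at 0.54 (adjusted p = 0.023) for *mt-Rnr1* and 0.53 (adjusted p = 0.0295) for *mt-Rnr2*. Of the tRNAs, *mt-Tt* at -1.38 (adjusted p = 7.57e-05), *mt-Tw* at -0.88 (adjusted p = 0.00202) and *mt-Ti* at -0.82 (adjusted p = 0.00479) were still lower. Of the mRNAs, *mt-Nd3* at -1.21 (adjusted p = 5.50e-05), *mt-Co2* at -0.81 (adjusted p = 0.0101) and *mt-Co3* at -0.81 (adjusted p = 0.00553) were, and all 3 lie in the copied stretch. The log2 fold changes of the other heavy-strand mRNAs with many reads, *mt-Nd1*, *mt-Nd2*, *mt-Co1*, *mt-Nd4*, *mt-Nd5* and *mt-Cytb*, lay between -0.18 and 0.39 and were not called. These mRNAs hold most of the reads that the scaling sets equal, with 44.8% to 67.7% per muscle on *mt-Co1* alone. The scaling therefore removes most of their common change, so whether they moved together was not tested.

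The nuclear genes that make and use these RNAs were lower in part, and with the authors' size factors none of those tested was higher. Of the genes for mitochondrial DNA transcription and replication, 5 of 16 tested were lower, with a median log2 fold change of -0.17. They included *Tefm* (-0.83), an elongation factor of the mitochondrial RNA polymerase, *Mterf2* (-0.79) and the topoisomerase *Top1mt* (-0.61). Named after their values were seen, the polymerase *Polrmt* (-0.26) was not called (adjusted p = 0.161), and *Tfam* (-0.56), which packages mitochondrial DNA and starts its transcription, was lower (adjusted p = 0.00478). Of the genes for RNA processing, modification and decay, 19 of 37 were lower (median -0.37), among them *Fastkd2* (-0.88), *Prorp* (-0.84), the nuclease that cuts the 5′ ends of mitochondrial tRNAs, and the rRNA methyltransferase *Nsun4* (-0.72). Of the mitochondrial aminoacyl-tRNA synthetases and their partners, 10 of 23 were lower (median -0.31), including *Fars2* (-0.62) and *Qrsl1* (-0.58). Translation factors were lower in 7 of 12 (median -0.52), with *Tsfm* (-0.78), *Gfm1* (-0.74) and *Mtrf1* (-0.67). Mitochondrial ribosomal proteins, the partners of the rRNAs, were lower in 55 of 77 (median -0.50), with *Mrps28* (-1.04), *Mrpl55* (-1.01) and *Mrpl57* (-0.79). Across all genes tested, 20.1% were lower, and the medians of these 5 lists relative to that of all genes were -0.52 to -0.17 with the size factors and -0.53 to -0.18 under equal totals. Under equal totals, 5.92% of all genes tested were lower and 40.2% higher, and fewer genes of these lists were lower (1, 4, 1, 2 and 9, in the order given), and 1, 3 and 3 genes of the first 3 lists were higher.

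The nuclear-encoded subunits of the same complexes were lower in 34 of 37 for complex I and in 34 of 36 for complexes III, IV and V, against 20.1% of all genes tested. Their log2 fold changes ranged from -1.01 to 0.04 (median -0.65) and from -0.93 to -0.24 (median -0.65). Among those lower were *Ndufa12* (-1.01) and *Ndufb5* (-0.99) in complex I, and *Cox7b* (-0.93), *Atp5g1* (-0.86) and *Atp5h* (-0.82) in the others. The mitochondrial mRNAs outside the copied stretch had a median of -0.82, and those inside it -1.94 before the reads of the copies were added. The difference between mitochondrially and nuclear-encoded subunits was not tested. Under equal totals, which moved the median of all genes to 0.36, the medians were -0.92 for the mitochondrial mRNAs (8 lower), -1.29 for the tRNAs (7 lower) and -0.29 for the complex I subunits (16 lower), and the transcription list turned to 0.18 and the synthetase list to 0.05. In that fit 5.92% of all genes tested were lower.

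Markers of fiber types and other cell types differed between the groups along with the mitochondrially encoded RNAs, and their part in these levels was not tested. No marker was at 0 in all muscles. For the counts below, 20.1% of all genes tested were lower and 20.9% higher. Fast glycolytic fiber markers, which define most TA fibers, were high in all muscles, and their summed normalized count was 812378 to 1038369 in WT and 620167 to 953235 in *mdx5cv*, with 3 of 7 lower. Of the fast oxidative and intermediate fiber markers 1 of 2 was lower, *Myh2* at a log2 fold change of -1.54, with sums of 88726 to 117052 in WT and 53114 to 124205 in *mdx5cv*. Slow fiber markers were higher in 4 and lower in 1 of 7 (sums 747 to 834 in WT and 1202 to 2597 in *mdx5cv*). All 7 markers of regenerating fibers (sums 179.9 to 202 in WT and 2497 to 9461 in *mdx5cv*), all 8 of macrophages (sums 518 to 793 in WT and 4240.4 to 10500.1 in *mdx5cv*) and 5 of 6 of fibroblasts (sums 6387 to 9689 in WT and 22460.4 to 41026 in *mdx5cv*) were higher. Lower were 4 of 5 adipocyte markers (sums 909 to 1479.8 in WT and 423 to 658 in *mdx5cv*), 6 of 6 endothelial markers (sums 2939.9 to 3510.3 in WT and 1732 to 2209 in *mdx5cv*) and 3 of 5 erythrocyte markers (sums 694 to 1240.0 in WT and 342 to 733 in *mdx5cv*).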

How the data were processed

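TA muscles of 4 WT and 4 *mdx5cv* mice were assigned to groups by their labels. For 55401 genes without a filter, the authors deposited normalized counts (a signal, in which the reads of a gene are divided by the size factor of the library). The processing notes of the submitters name FastQC, Trim Galore 0.6.4, STAR 2.6.0c, SAMtools 1.9, featureCounts, MultiQC 1.6, DESeq2 1.26.0 and R 3.6.2 with mm10. Counting options for strand and for reads with several matching places are not given in the sources used here.

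Each column was divided by its smallest value above 0, and 100% of values came out as whole reads (tolerance 0.01). The main test was limma 3.58.1 (R 4.3.3) on log2(normalized count + 1), two-sided and with a variance trend, over 13677 genes (normalized count of 10 or more on average), with Benjamini-Hochberg adjustment at 0.05. edgeR 4.0.16 (quasi-likelihood) and DESeq2 1.42.0 on the recovered reads were alternatives, with other pseudocounts (0.1, 10), filters, scalings, no variance trend, a replicate block, a minimum absolute log2 fold change of 1, and each replicate left out. The test was checked on simulated data. Members and annotation came from GENCODE M21 (GRCm38), which held 55141 of the gene IDs, and copies were found by aligning its transcripts. Anticodons were placed by searching each tRNA for its known anticodon in a 7-base loop with the best 5-pair stem. The reads of replicates differed by more than sampling noise (chi-square per degree of freedom 8.59 to 38.4). Whether the mice share litters or days is not stated. P-values rest on the spread between these samples, which limma moderates toward a trend over the level of the genes. For *mt-Rnr2* this trend outweighed the spread between muscles.

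The named genes were all members, *Dmd*, and of each list up to 3 called genes per direction by size of the fold change; values of the marker lists are given as sums, and 2 genes that this rule names are not reported here. Members, lists and tests were chosen with earlier results of these data known. Other steps used Python 3.11.15, numpy 2.4.6, pandas 2.3.3 and matplotlib 3.10.9.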

Additional observations from a re-analysis of the deposited data

Results flagged for a closer look

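Dixon's criterion, which sets the gap between an extreme muscle and its neighbor against the whole range, was applied to 58 sets of 4 muscles (log2 normalized counts of the members tested, and read shares and ratios, per group). In 3 sets 1 muscle stood apart, where chance gives about 2.9 (1 in 20 sets). For *mt-Ti*, *mdx5cv* replicate 2 had a log2 normalized count of 6.49, and the other *mdx5cv* muscles had 5.81 to 5.91. For *mt-Tq*, *mdx5cv* replicate 4 had a log2 normalized count of 3.40, and the others had 4.29 to 4.38. WT replicate 2 had 18.7 *mt-Co1* reads per *mt-Nd5* read, and the other WT muscles had 6.03 to 7.99. No cause was tested for these muscles.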

How the results depend on the processing

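Over 21 members and the 22 alternatives that refitted them, 415 of 460 fold changes kept direction and side of the threshold. With the direction kept, 34 lost the call and 4 gained it, and 7 turned direction. The count of lower mRNAs was 11, and 8 to 11 when each muscle was left out in turn; the count of lower tRNAs was 7 in each of these. The percentage of reads on all members ranged from 34.1 to 37.0 in WT and from 27.1 to 29.4 in *mdx5cv* with a muscle left out, and was 6.74 and 3.66 with the rRNAs taken out of members and total. Scaling to equal mitochondrial mRNA reads changed most by construction, since it sets the sum of these reads equal, and left 3 mRNAs and 3 tRNAs lower. The log2 fold changes that turned direction were all under this scaling, namely 0.54 for *mt-Rnr1*, 0.53 for *mt-Rnr2*, 0.10 for *mt-Nd2*, 0.37 for *mt-Nd4*, 0.39 for *mt-Nd5*, 0.49 for *mt-Nd6* and 0.33 for *mt-Cytb*. Of these, *mt-Rnr1* and *mt-Rnr2* were called higher, and *mt-Nd2*, *mt-Nd4*, *mt-Nd5* and *mt-Cytb* lost their calls. All genes tested had a median log2 fold change of 0.36 under equal totals, 0.22 under equal totals outside mitochondrial genes and 1.15 under equal mitochondrial mRNA reads. Both equal totals left 8 mRNAs lower. The rRNAs called lower were 1 without the variance trend (*mt-Rnr2*) and 2 in DESeq2. The log2 fold change of *mt-Rnr2* was -0.62 with and without the trend, so that call turned on the variance estimate. Why DESeq2 called both was not tested. *mt-Nd4* also lost its call without the variance trend (adjusted p = 0.0516), *mt-Cytb* with no filter on low values (0.0586), and *mt-Nd5* in DESeq2 (adjusted p = 0.0590), without the variance trend (0.0802) and with no filter on low values (0.0653). Requiring a log2 fold change of -1 or less left 8 mRNAs and 7 tRNAs lower, without *mt-Nd4*, *mt-Nd5* and *mt-Cytb*. Requiring 10 in each library left out *mt-Atp8* and *mt-Tq*, with 10 mRNAs and 6 tRNAs lower.

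With the replicate number as a replicate block, 10 mRNAs were lower, *mt-Nd5* having an adjusted p of 0.0619, and no other call changed. Deviations of same-numbered muscles correlated at 0.0309 to 0.146, with 1 of 4 pairs over 0.1, and 5 of 8 muscles correlated best with their own number. The samples were not treated as paired, since the labels give the number no meaning and not every pair was over 0.1. Depth limits the 15 tRNAs and *mt-Nd4l*, which the main test left out. DESeq2, run on all genes with reads, called 11 mRNAs lower, with *mt-Nd4l* and without *mt-Nd5*. In limma with no filter on low values, *mt-Nd4l* was not called.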
